A study of Mus musculus with 22 samples.

Results

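The genes described here encode proteins of synaptic vesicle exocytosis, and the set was given as a list of 39 gene symbols of vesicle, SNARE and active zone proteins. Each symbol was matched to its feature by Entrez gene number, and all 39 were found among the 20239 features with 1 gene symbol, of 21225 features in all. None of the 39 lies on chromosome 16, from which the extra segment of the Ts1Cje mouse derives, so 0 of them belong to the triplicated region itself.

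Neurotransmitter is released when a synaptic vesicle fuses with the presynaptic membrane at the active zone. The vesicle protein synaptobrevin (Vamp1, Vamp2) and the plasma membrane proteins syntaxin (Stx1a) and Snap25 assemble into the SNARE complex that drives fusion. Complexins hold this complex ready and synaptotagmins sense the calcium that enters with an action potential. RIM, Munc13, Bassoon and Piccolo proteins organise and prime the release site. Synapsins tether the reserve vesicles, and Slc17a6 and Slc17a7 (VGLUT2 and VGLUT1) load vesicles with glutamate. In the forebrain many of these proteins exist as paralogs that differ between neuron types.

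Tissue of 6 Ts1Cje mice and 5 wild-type (WT) littermates, all female and aged 8 to 10 weeks, was profiled on Affymetrix Mouse Gene 1.0 ST microarrays, which read transcripts through probes spread along each gene. Ts1Cje is a model of Down syndrome with segmental trisomy of distal chromosome 16, kept by crossing Ts1Cje males to C57Bl/6J, so both genotypes share that background. The hippocampus and the cortex of every animal were hybridised once, giving 22 arrays. Genotype p-values within a region measure the spread between animals, and the number of animals limits the precision. The main fit between regions took both arrays of an animal as independent. RNA had an integrity number above 9, but hippocampus and cortex were extracted with different kits, so kit and region cannot be told apart.

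The values are log2 signals. The arrays of Ts1Cje animal 64 and WT animal 60 stood apart from the others. The interquartile range of their log2 values in cortex was 2.64 and 2.51, against 3.21 to 3.39 on the other cortex arrays. Among the members, animal 64 had the lowest of the 6 Ts1Cje values for 20 of 39 genes in cortex and 17 in hippocampus, and animal 60 had the lowest of the 5 WT values for 22 and 17. In hippocampus they were extreme at both ends, since animal 64 also had the highest value for 15 members and animal 60 for 11. The samples matched their labelled regions: all 9 measured markers of hippocampal neurons were higher in hippocampus, and of 7 measured markers of cortical projection neurons 6 were lower there and Fezf2 was higher. The striatal list had 6 measured markers, all lower in hippocampus with a median log2 difference of -2.19, so the cortex samples held more RNA of striatal markers than the hippocampus samples did.

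The members were bright on these arrays, and 38 of 39 lay above the median feature in mean signal. The median member varied less between animals than the median feature in each of the 4 groups, by the smallest margin among WT hippocampi. It had an SD of the log2 signal of 0.0942 among Ts1Cje and 0.102 among WT hippocampi, against 0.152 and 0.11 for the median of all features, and of 0.109 among Ts1Cje and 0.1 among WT cortices, against 0.187 and 0.219. Most of the margin in cortex came from animals 64 and 60: without them the median member had 0.0716 among Ts1Cje and 0.0554 among WT cortices, against 0.092 and 0.0785 for all features. In hippocampus it then had 0.0724 among Ts1Cje and 0.0617 among WT, against 0.0918 and 0.0732. Sv2a, a vesicle glycoprotein that binds the drug levetiracetam, had the smallest SD of the members in both sets of cortices, at 0.0147 in Ts1Cje and 0.0151 in WT. Its SD was also the smallest without those animals, at 0.0146 in Ts1Cje and 0.0107 in WT. Unc13c, which encodes the priming factor Munc13-3, had an SD of 0.26 in Ts1Cje and 0.392 in WT cortex, and of 0.127 and 0.246 without animals 64 and 60.

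Promoter windows from RefSeq on build GRCm38.p6, running from 250 bases before to 50 after an annotated start, were found for 28 of 39 members, some with several starts, 37 windows in all. The following 4 are shown because they belong to the members with a single window whose levels differed most in each direction between the regions. Rims3 and Stx1a were lower and Syt3 and Slc17a7 higher in hippocampus. They lie at chr4:120854549-120854848, chr5:135023232-135023531, chr7:44383876-44384175 and chr7:45163671-45163970, all on the plus strand, and are written 5′ to 3′. Capitals mark the GC box GGGCGG, the element bound by Sp1, on either strand, and TGACG, the core of the cAMP response element, also on either strand.
Rims3: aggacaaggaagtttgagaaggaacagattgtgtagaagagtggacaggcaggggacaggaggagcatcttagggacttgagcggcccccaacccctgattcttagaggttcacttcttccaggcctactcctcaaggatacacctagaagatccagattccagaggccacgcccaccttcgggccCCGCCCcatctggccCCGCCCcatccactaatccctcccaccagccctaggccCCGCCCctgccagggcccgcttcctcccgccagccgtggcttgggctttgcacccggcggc
Stx1a: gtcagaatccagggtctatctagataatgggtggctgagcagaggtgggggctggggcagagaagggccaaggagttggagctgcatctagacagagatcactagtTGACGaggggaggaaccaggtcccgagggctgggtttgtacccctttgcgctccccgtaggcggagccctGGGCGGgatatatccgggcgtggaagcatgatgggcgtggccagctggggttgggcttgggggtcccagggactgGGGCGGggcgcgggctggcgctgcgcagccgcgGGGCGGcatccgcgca
Syt3: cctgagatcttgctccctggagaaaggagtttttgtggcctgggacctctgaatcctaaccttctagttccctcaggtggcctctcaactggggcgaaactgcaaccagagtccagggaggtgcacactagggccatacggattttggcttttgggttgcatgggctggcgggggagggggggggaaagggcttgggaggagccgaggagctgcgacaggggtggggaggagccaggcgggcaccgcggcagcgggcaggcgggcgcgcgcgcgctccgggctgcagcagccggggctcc
Slc17a7: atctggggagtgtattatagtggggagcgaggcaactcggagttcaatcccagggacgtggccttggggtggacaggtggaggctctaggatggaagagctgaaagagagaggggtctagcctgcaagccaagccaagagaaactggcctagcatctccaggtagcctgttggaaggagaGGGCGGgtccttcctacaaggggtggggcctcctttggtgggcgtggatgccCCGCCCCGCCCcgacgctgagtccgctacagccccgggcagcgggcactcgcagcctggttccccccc
The Rims3, Stx1a and Slc17a7 windows each held the GC box, and the Syt3 window held neither motif. Over all member windows 64.9% held GGGCGG on either strand, against 35.7% of the 32851 windows of all genes, and the median GC content was 62.3% against 52.7%. The core TGACG was present in 24.3% of member windows and 20.8% of all windows. The whole element TGACGTCA, which contains that core, was present in 2.7%, in the Syn1 window alone, against 1.79% of all windows. The TATA box TATAAA was present in 8.11% of member windows and 13.6% of all windows. A match describes the letters only, and members on both sides of the regional difference carried the GC box.

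The first comparison asked where in the forebrain these genes differ, with hippocampus set against cortex. Array medians averaged 6.93 in hippocampus and 7.56 in cortex, so each array was centred on its median, and every regional level below is a centred log2 signal, above 0 where the gene was brighter than the median feature of its array. Of 39 members 31 differed between the regions at an adjusted p under 0.05 with limma, 9 higher and 22 lower in hippocampus. Among all features 41.4% were called, 20.2% higher and 21.2% lower. The share called was 46.1% among features brighter than the median, where 38 of the members lie. In the brightest 2024 features it was 51.5%, and 14 of the 22 members there were called. The difference was called and larger than 1.5-fold in 8 members, against 6.58% of all features. The median member difference was -0.18, against -0.0040 for all features, and the median size was 0.27 against 0.16. For 15 members the 11 hippocampal and the 11 cortical values did not overlap, as was the case for 9.71% of all features. In 25 members the difference had the same sign in all 11 animals, 8 higher and 17 lower in hippocampus, as against 25.8% of all features. In bulk tissue fewer cells of a type and less RNA per cell cannot be told apart.

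**Figure D1:**
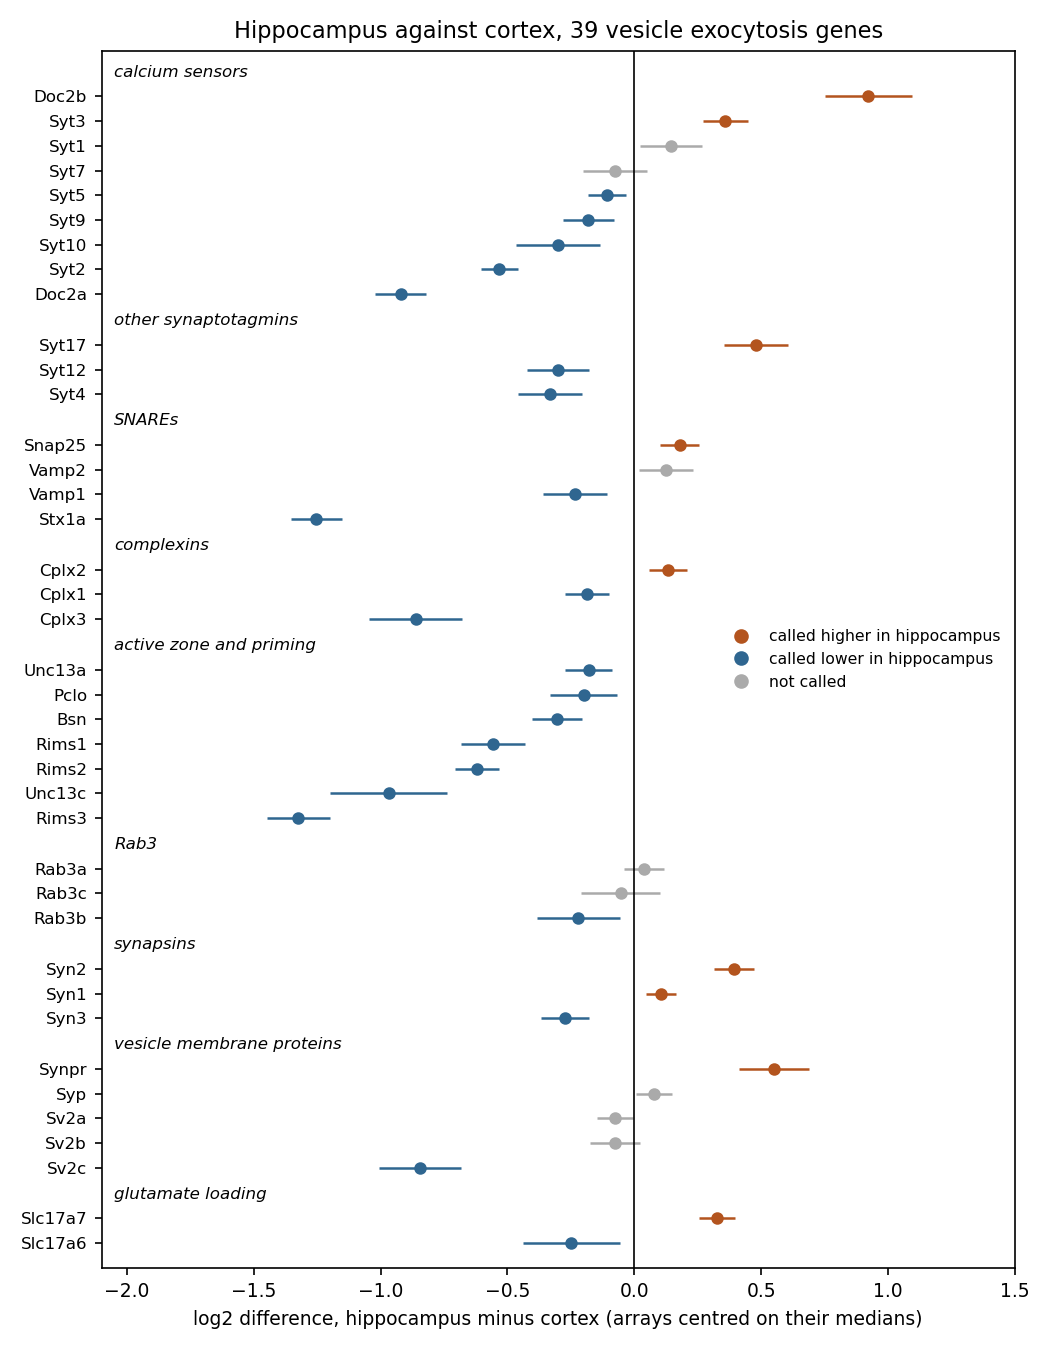
Hippocampus minus cortex, as a difference of centred log2 signals, for each of the 39 members grouped by role; points are the fitted differences and bars their 95% intervals over 11 hippocampus and 11 cortex arrays. All 7 active zone and priming genes lie below 0, while the calcium sensors span from -0.92 for Doc2a to 0.92 for Doc2b.

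The active zone and priming genes were the group in which every member moved one way. All 7 were lower in hippocampus, with a median log2 difference of -0.56. Rims3 (Entrez 242662) encodes a short RIM protein that carries only the C-terminal C2 domain of the family. Its centred log2 level was 0.87 at the lowest, 1.14 at the median and 1.40 at the highest of 11 hippocampus arrays, against 2.14, 2.51 and 2.63 of 11 cortex arrays. Every hippocampal value lay below every cortical one. The log2 difference was -1.32 ± 0.0594 (SE), or 2.5-fold lower in hippocampus, with an adjusted p of 9.83e-14. The long RIM scaffolds, which bind Rab3 on the vesicle and Munc13 on the membrane, followed with smaller differences. Rims2 (Entrez 116838) had centred log2 levels of 1.80, 1.97 and 2.08 in hippocampus at the lowest, median and highest array, against 2.40, 2.61 and 2.73 in cortex, a difference of -0.62 ± 0.0421 (adjusted p 8.87e-11). Rims1 (Entrez 116837) had 2.60, 2.88 and 2.94 in hippocampus, against 3.11, 3.43 and 3.59 in cortex, a difference of -0.56 ± 0.0602 (adjusted p 1.4e-07). Neither gene's regional ranges overlapped.

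Of the Munc13 priming factors, Unc13c (Entrez 208898) was the one with the larger regional difference. Its centred log2 level was 0.25, 0.57 and 0.79 in hippocampus at the lowest, median and highest array, against 0.79, 1.61 and 1.93 in cortex, where the lowest value came from WT animal 60. The ranges met without overlapping, and the log2 difference was -0.97 ± 0.111, or 1.96-fold lower in hippocampus (adjusted p 3.11e-07). Unc13a, the main priming factor of forebrain glutamate synapses, was lower by a smaller amount, with a log2 difference of -0.18 (adjusted p 0.00245). The large scaffolds Bassoon and Piccolo were also lower in hippocampus. Bsn differed by -0.30 ± 0.0475 (adjusted p 2.22e-05) with no overlap between regions, and Pclo by -0.20 (adjusted p 0.0158) with overlapping ranges.

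Among the SNARE genes Stx1a had the largest difference. Stx1a (Entrez 20907), the plasma membrane syntaxin, had centred log2 levels of 1.54, 1.71 and 1.88 in hippocampus at the lowest, median and highest array, against 2.75, 2.93 and 3.16 in cortex. All 11 hippocampal values lay below the lowest cortical one, with a wide gap between the regions. The log2 difference was -1.25 ± 0.0487, or 2.38-fold lower in hippocampus (adjusted p 9.43e-15). Its vesicle partners had smaller differences. Vamp1 was lower, with a log2 difference of -0.23 (adjusted p 0.00334), and the fitted difference for Vamp2, the main vesicle SNARE of the forebrain, was 0.12 with an adjusted p of 0.0566. Snap25 (Entrez 20614), the third partner of the complex, had levels of 5.79, 5.90 and 6.00 in hippocampus, against 5.56, 5.72 and 5.82 in cortex. That difference of 0.18 ± 0.0372 (adjusted p 0.00052) had the opposite sign after quantile normalization of all arrays, at -0.12 (adjusted p 0.00954), so its direction depends on the scaling.

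The complexins, which bind the assembled SNARE complex, moved in different directions. Cplx3 (Entrez 235415), best known from retinal ribbon synapses and deep cortical neurons, had centred log2 levels of -1.22, -0.99 and -0.34 in hippocampus at the lowest, median and highest array, against -0.45, -0.07 and 0.17 in cortex. It was the only member whose median level in cortex lay below the median feature of the arrays. Of the 11 hippocampal values 10 lay below all cortical values, and the exception, -0.34, came from Ts1Cje animal 64. The log2 difference was -0.86 ± 0.0881, or 1.82-fold lower in hippocampus (adjusted p 6.15e-08). Cplx1 was lower, at -0.19 (adjusted p 0.000953). Cplx2 (Entrez 12890) was higher in hippocampus, with levels of 2.98, 3.06 and 3.21 there, against 2.81, 2.95 and 3.03 in cortex, and a log2 difference of 0.13 ± 0.0365 (adjusted p 0.00558).

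The calcium sensors included a pair of paralogs on opposite sides. Doc2a and Doc2b encode high-affinity calcium sensors of spontaneous and asynchronous release, and they differed in opposite directions. Doc2a (Entrez 13446) had centred log2 levels of 0.59, 0.75 and 0.96 in hippocampus at the lowest, median and highest array, against 1.44, 1.68 and 1.82 in cortex, a difference of -0.92 ± 0.0488 or 1.89-fold lower (adjusted p 1.47e-12). Doc2b (Entrez 13447) had levels of 1.52, 1.85 and 2.10 in hippocampus, against 0.44, 1.00 and 1.17 in cortex, a difference of 0.92 ± 0.0819 or 1.9-fold higher (adjusted p 6.73e-09). Neither gene's regional values overlapped. Both signs held in all 11 animals.

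The synaptotagmins that sense calcium split as well. Syt2, a fast sensor best known from the hindbrain and from inhibitory neurons, was lower in hippocampus with a log2 difference of -0.53 ± 0.0356 (adjusted p 6.84e-11) with no overlap. Syt10, Syt9 and Syt5 were lower, at -0.30, -0.18 and -0.11 (adjusted p 0.00447, 0.00516 and 0.0182), though the Syt5 call was lost without animal 95 or 98. Syt3 (Entrez 20981), a high-affinity isoform, was higher. Its centred log2 levels were 1.36, 1.44 and 1.60 in hippocampus, against 1.01, 1.09 and 1.26 in cortex, a difference of 0.36 ± 0.043 or 1.28-fold higher (adjusted p 6.04e-07). The fast sensor of most forebrain synapses, Syt1, and the slow sensor Syt7 did not pass the test, with differences of 0.15 ± 0.0581 (adjusted p 0.05, just above the threshold) and -0.08 (adjusted p 0.341). Of the synaptotagmins not thought to act as calcium sensors in fusion, Syt17 (Entrez 110058) was higher in hippocampus, with levels of 2.67, 2.92 and 3.10 there, against 2.15, 2.44 and 2.71 in cortex. Its log2 difference was 0.48 ± 0.0605 (adjusted p 1.22e-06), and 10 of 11 hippocampal values lay above all cortical ones. Syt4 and Syt12 were lower, at -0.33 and -0.30 (adjusted p 0.000142 and 0.000259).

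Vesicle proteins and transporters showed smaller differences, with Sv2c and Synpr as the exceptions. Sv2c (Entrez 75209), the SV2 isoform enriched in the basal ganglia, had centred log2 levels of 0.69, 0.92 and 1.06 in hippocampus, against 1.29, 1.84 and 2.12 in cortex, a difference of -0.85 ± 0.0783 or 1.8-fold lower (adjusted p 1.33e-08). The summed level of the 6 striatal markers was 3.53 to 3.98 in hippocampus and 5.48 to 6.15 in cortex on the same scale, and the part of those cells in the Sv2c difference was not tested. Synpr (Entrez 72003), which encodes the synaptophysin relative synaptoporin of mossy fibre terminals, had levels of 1.99, 2.26 and 2.42 in hippocampus, against 1.40, 1.71 and 1.95 in cortex. Its difference was 0.55 ± 0.0668 or 1.46-fold higher (adjusted p 7.4e-07), with no overlap. The widely expressed vesicle proteins did not pass the test. Syp differed by 0.08 (adjusted p 0.0674), Sv2a by -0.08 (adjusted p 0.0771) and Sv2b by -0.08 (adjusted p 0.203).

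The synapsins divided by paralog. Syn2 (Entrez 20965) had centred log2 levels of 4.49, 4.59 and 4.64 in hippocampus at the lowest, median and highest array, against 3.96, 4.21 and 4.31 in cortex, a difference of 0.39 ± 0.038 or 1.31-fold higher (adjusted p 2.51e-08). Syn1 was higher by 0.11 ± 0.0285 (adjusted p 0.00503), and Syn3 lower, at -0.27 (adjusted p 3.94e-05). The glutamate transporters also parted. Slc17a7 (Entrez 72961), the transporter of most cortical and hippocampal projection neurons, had levels of 5.07, 5.14 and 5.25 in hippocampus, against 4.72, 4.83 and 4.92 in cortex, a difference of 0.33 ± 0.0343 or 1.25-fold higher (adjusted p 9.68e-08). Slc17a6, the transporter of thalamic afferents, had a difference of -0.25 ± 0.0918 (adjusted p 0.0341). Of 7 thalamic markers 4 were called higher and 2 lower in hippocampus, with a median log2 difference of 0.16. Their summed level was 3.60 to 3.93 in hippocampus and 3.61 to 4.18 in cortex. The part of these markers in the Slc17a6 difference was not tested. The Slc17a6 call rested on a narrow margin: 10 of 11 animals were lower in hippocampus, WT animal 60 was higher by 0.67, and leaving out any single one of animals 61, 87, 94, 97, 63, 98, 65 or 95 ended it. Of the Rab3 GTPases, which tie vesicles to RIM, Rab3b was lower, at -0.22 (adjusted p 0.0298), a call lost without animal 63, 97, 62, 65, 95 or 98, while Rab3a and Rab3c differed by 0.04 and -0.05 (adjusted p 0.471 and 0.608).

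**Figure D2:**
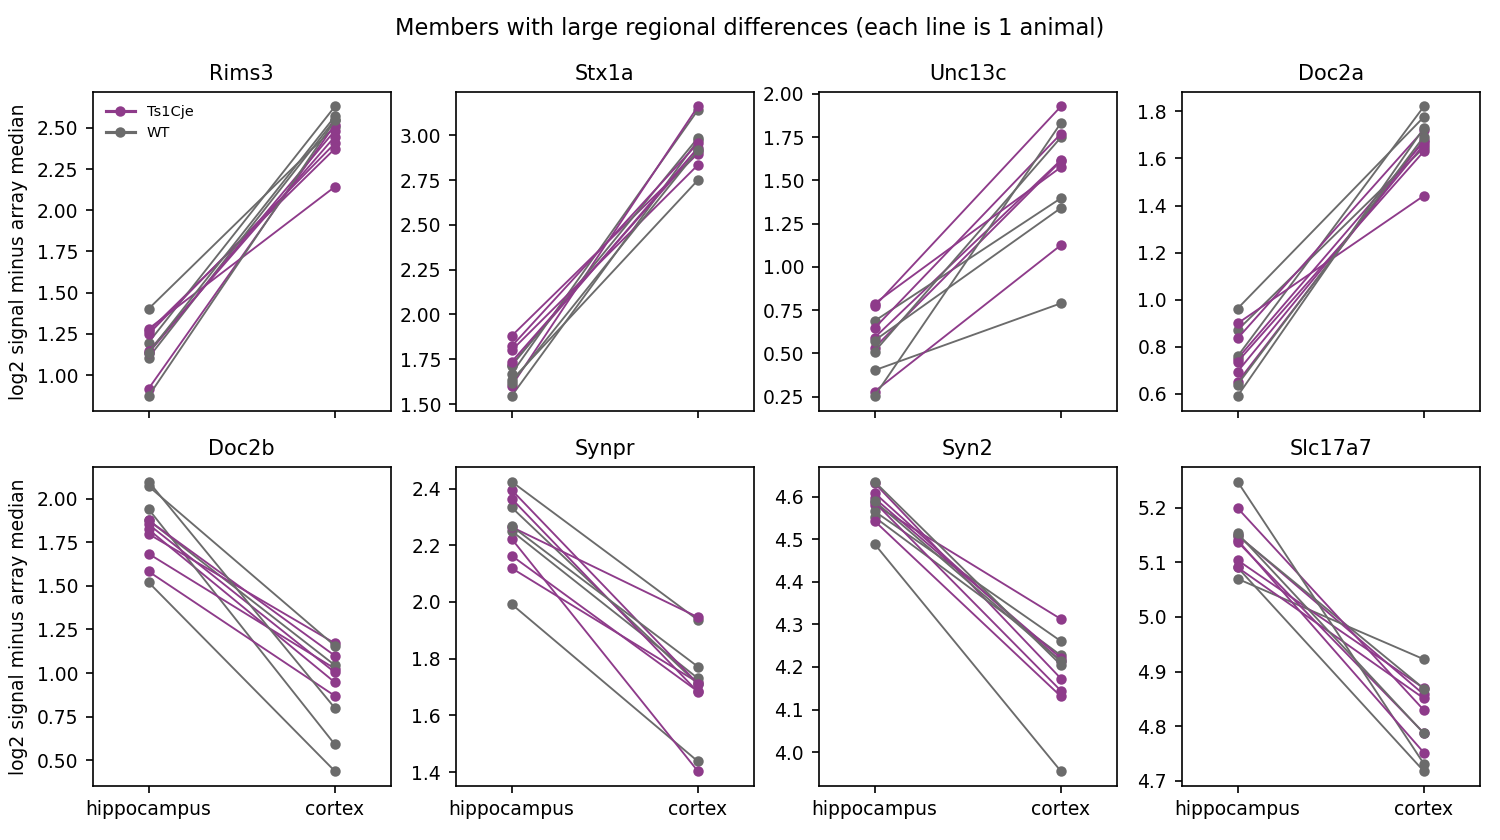
Centred log2 signal in hippocampus and cortex for 8 members with large called differences, with the 2 arrays of each animal joined by a line, purple for the 6 Ts1Cje and grey for the 5 WT animals. Rims3, Stx1a, Unc13c and Doc2a are lower in hippocampus, and Doc2b, Synpr, Syn2 and Slc17a7 are higher there, in all 11 animals.

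The regional differences had the same signs in both genotypes. With the 6 Ts1Cje animals alone 25 members were called, beside 28.3% of all features, and with the 5 WT animals alone 19, beside 22%. Both fits called 18 of them, and the fitted sign was shared by 39 of 39 members. Rims3 differed by -1.23 in Ts1Cje and -1.42 in WT, Stx1a by -1.19 and -1.32, Synpr by 0.56 and 0.54, and Doc2b by 0.75 and 1.10. Fitting the animal as a random replicate block, which pairs the regions of an animal, called 35 members, beside 54% of all features. It added Syt1 at 0.15 (adjusted p 0.00607), Syp at 0.08 (adjusted p 0.0153), Vamp2 at 0.12 (adjusted p 0.0127) and Sv2a at -0.08 (adjusted p 0.0264). Of these 4, Syt1, Syp and Vamp2 had the opposite sign after quantile normalization. Without animals 64 and 60, 38 members were called, 12 higher and 26 lower, beside 65.5% of all features.

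Scaling decided the direction of some bright members. Without centring the median of all features shifted by -0.63, and relative to zero 37 members were called lower and 1, Doc2b, was called higher, where 95.3% of all features were called. After quantile normalization 7 were called higher and 24 lower, beside 47.8% of all features. There 5 members turned from above to below 0. Snap25 and Syt1 were called lower, Syt1 at -0.14 (adjusted p 0.0275), and Vamp2, Syp and Rab3a were at -0.10, -0.043 and -0.040. That scaling also ended the calls of Vamp1 (-0.20, adjusted p 0.0521) and Rab3b (-0.19, adjusted p 0.0729). Set against features of the same brightness, 8 were called higher and 24 lower, beside 40.6% of all features, and Snap25 kept its sign at 0.12 (adjusted p 0.0121). Syn1 was not called under quantile normalization (0.02, adjusted p 0.59) or against features of the same brightness (0.05, adjusted p 0.192). Scaling each centred array to 1 interquartile range moved no sign but called 21 members, beside 41.3% of all features. It ended the calls of Syt5, Syn1, Snap25, Vamp1, Cplx1, Cplx2, Rab3b, Unc13a, Pclo and Slc17a7. Rims3, Stx1a, Unc13c, Doc2a, Sv2c, Cplx3 and Rims2 were lower, and Doc2b was higher, under each of these scalings.

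**Figure D3:**
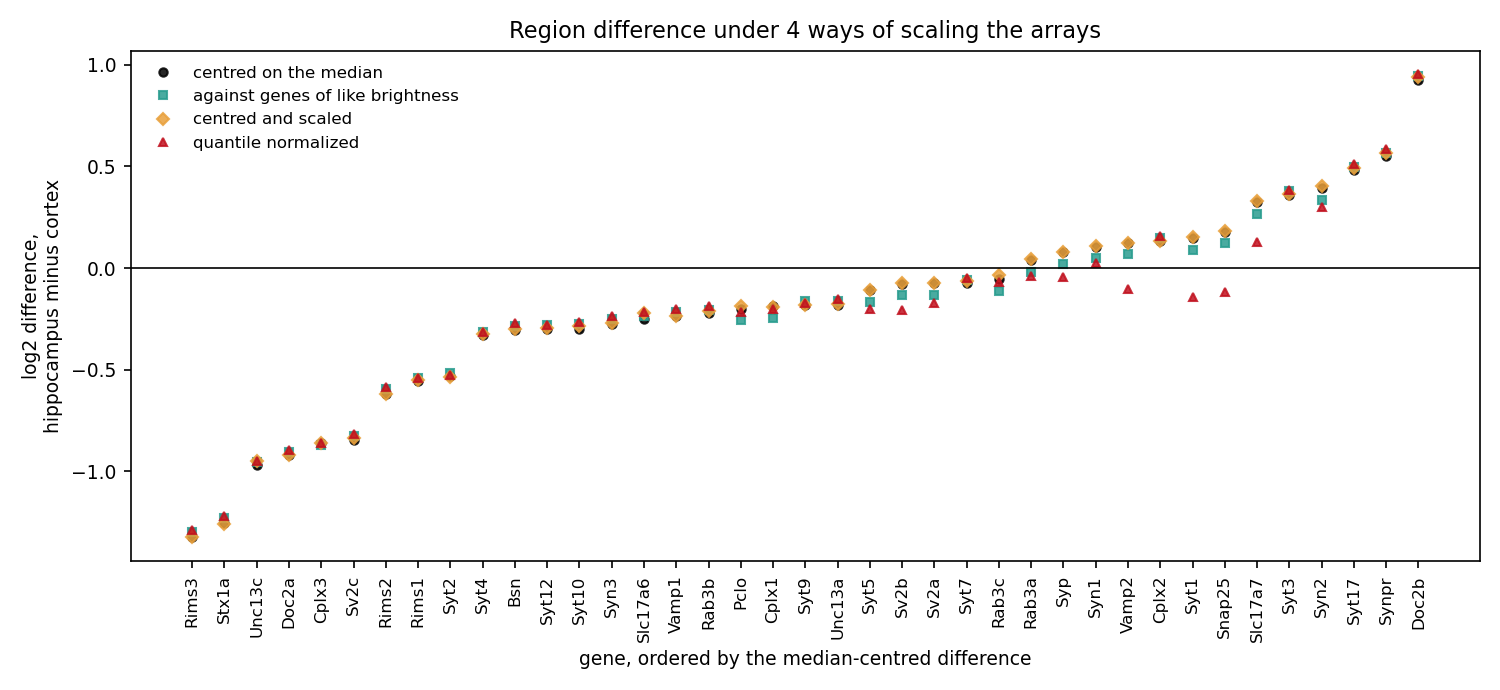
Hippocampus minus cortex log2 difference of each member under 4 scalings of the arrays: centred on the median, set against features of like brightness, centred and scaled to 1 interquartile range, and quantile normalized. The largest differences keep their sign, Doc2b above 0 and Rims3 and Stx1a below it, while Snap25 is 0.18 after centring and -0.12 after quantile normalization.

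Of the wider exocytosis machinery, 63 of 68 further genes were measured and 38 (60.3%) differed between the regions, beside 41.4% of all features. Of these genes 16 were higher and 22 lower in hippocampus, beside 20.2% and 21.2% of all features. The median difference of the 63 was -0.01. Syt6, a synaptotagmin, had the largest difference. Its mean centred log2 level was -0.24 ± 0.107 in hippocampus and 1.76 ± 0.161 in cortex (SD, n = 11 each), or 4.01-fold lower (adjusted p 1.86e-16). Lin7a, a presynaptic scaffold, was lower, at -0.64 (adjusted p 2e-07) and Rims4, the other short RIM protein, at -0.31 (adjusted p 0.000729). Nsf, the ATPase that takes spent SNARE complexes apart, was higher, at 0.36 (adjusted p 7.48e-09), and so was Ppfia2, the scaffold liprin-α2, at 0.42 (adjusted p 0.000119). The pan-neuronal list had 3 of 9 markers higher and 2 lower in hippocampus, and its summed level was 7.07 to 7.27 in hippocampus and 6.89 to 7.19 in cortex. In the interneuron list 5 of 7 markers were lower, Sst was higher, and the sum was 5.64 to 5.80 in hippocampus and 5.73 to 6.15 in cortex. The choroid plexus sum was 5.99 to 6.54 in hippocampus and 1.85 to 5.27 in cortex. The part of these cell mixtures in the members' differences was not tested.

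The second comparison asked whether these genes differ between Ts1Cje and WT mice. In cortex 0 of 39 members were called in Ts1Cje against WT with limma, where 0.00494% of all features were. At an unadjusted p under 0.05 there was 1 member, Rab3b, beside 1.3% of all features. The median member difference was 0.02 against -0.0034 for all features, and 23 members lay above 0. That count was 21 after centring the arrays, 20 without WT animal 60 and 19 after quantile normalization. The 95% interval lay inside a 1.5-fold change in either direction for 38 members, as it did for 87% of all features. The exception was Unc13c, with a log2 difference of 0.19 and an upper limit of 0.59. Without WT animal 60 its difference was 0.04.

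The 5 members with the lowest p in cortex are given with their values as deposited, in log2 signal. Rab3b, a Rab3 isoform linked to plasticity of inhibitory terminals, had a level of 9.48 at the lowest, 9.80 at the median and 10.10 at the highest of the 6 Ts1Cje cortices, against 9.44, 9.58, 9.38, 9.73 and 9.43 in the cortices of WT animals 60, 62, 65, 95 and 98, the order used for WT values throughout. Of the Ts1Cje values 4 lay above all WT values. The difference was 0.28 ± 0.105 (SE), with a 95% interval of 0.05 to 0.51, p 0.0219 and adjusted p 1. Rims3 had 9.71, 9.99 and 10.07 in Ts1Cje cortex, against 10.11, 10.16, 10.10, 10.08 and 10.12 in WT cortex. Its groups did not overlap, as was so for 1 of the 39 members and 0.306% of all features, but the gap was narrow. After centring the arrays the Rims3 groups overlapped, Ts1Cje animal 94 lying at 2.52 and WT animal 60 at 2.51. The difference was -0.16 ± 0.0719 (p 0.0508, adjusted p 1), and without animals 64 and 60 it was -0.11.

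Doc2b had 8.43, 8.60 and 8.71 in Ts1Cje cortex at the lowest, median and highest array, against 8.04, 8.12, 8.60, 8.70 and 8.35 in WT cortex. The groups overlapped and the WT values spread more widely (difference 0.22 ± 0.12, p 0.09, adjusted p 1). Without WT animal 60 the Doc2b difference was 0.14. Sv2c had 9.19, 9.45 and 9.55 in Ts1Cje cortex, against 8.89, 9.02, 9.39, 9.66 and 9.20 in WT cortex, a difference of 0.20 ± 0.129 (p 0.153, adjusted p 1). Without WT animal 60 the Sv2c difference was 0.11 and without WT animal 95 it was 0.30. In the WT cortices the animals stood in the same order for both genes, 60, 62, 98, 65 and 95 from low to high. The summed log2 level of the 6 striatal markers ranged from 13.44 to 13.66 in Ts1Cje cortices, and was 13.46, 13.27, 13.03, 13.59 and 13.69 in the WT cortices in that order. Its part in these values was not tested. Vamp1, the synaptobrevin of fast-spiking neurons and motor pathways, had 10.39, 10.54 and 10.74 in Ts1Cje cortex, against 10.65, 10.43, 10.37, 10.38 and 10.30 in WT cortex. The highest value of each genotype came from animals 64 and 60 (difference 0.13 ± 0.0871, p 0.16, adjusted p 1).

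In hippocampus 0 of 39 members were called in Ts1Cje against WT with limma, where 0.114% of all features were. That share rests on 23 features, and it was 1 feature without animal 61, 87, 97, 62, 65 or 98 and 35 without animal 64. At an unadjusted p under 0.05 there was 1 member, Syt17, beside 3.71% of all features. The median member difference was -0.01, against -0.0064 for all features, and 15 members lay above 0. That count was 21 after centring the arrays and 19 after quantile normalization or without animals 64 and 60. All 39 intervals lay inside a 1.5-fold change in either direction, as did 96.6% of all features, and no member had groups without overlap, against 0.637% of all features.

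Syt17 had a deposited log2 level of 9.62 at the lowest, 9.82 at the median and 9.86 at the highest of the 6 Ts1Cje hippocampi, against 9.85, 9.86, 10.05, 9.97 and 9.99 in the WT hippocampi. Of the Ts1Cje values 5 lay below all WT values. The difference was -0.16 ± 0.0593, with a 95% interval of -0.29 to -0.03 (p 0.0177, adjusted p 1). Stx1a had 8.52, 8.69 and 8.82 in Ts1Cje hippocampus, against 8.49, 8.60, 8.66, 8.57 and 8.55 in WT hippocampus, a difference of 0.11 ± 0.0579 (p 0.0872, adjusted p 1). Syn3 had 8.34, 8.51 and 8.56 in Ts1Cje, against 8.55, 8.53, 8.52, 8.51 and 8.69 in WT, a difference of -0.09 ± 0.0553 (p 0.125, adjusted p 1). For both genes the groups overlapped. Doc2b had 8.53, 8.73 and 8.79 in Ts1Cje hippocampus, against 8.47, 8.87, 8.82, 9.01 and 9.03 in WT hippocampus, where the low value is that of animal 60 (difference -0.15 ± 0.096, p 0.15, adjusted p 1). Without WT animal 60 that difference was -0.24. Vamp1 had 9.54, 9.63 and 10.04 in Ts1Cje hippocampus, against 9.74, 9.53, 9.51, 9.59 and 9.49 in WT hippocampus, a difference of 0.11 ± 0.088 (p 0.221, adjusted p 1). As in cortex its highest values came from animals 64 and 60, and without Ts1Cje animal 64 the Vamp1 difference was 0.04.

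**Figure D4:**
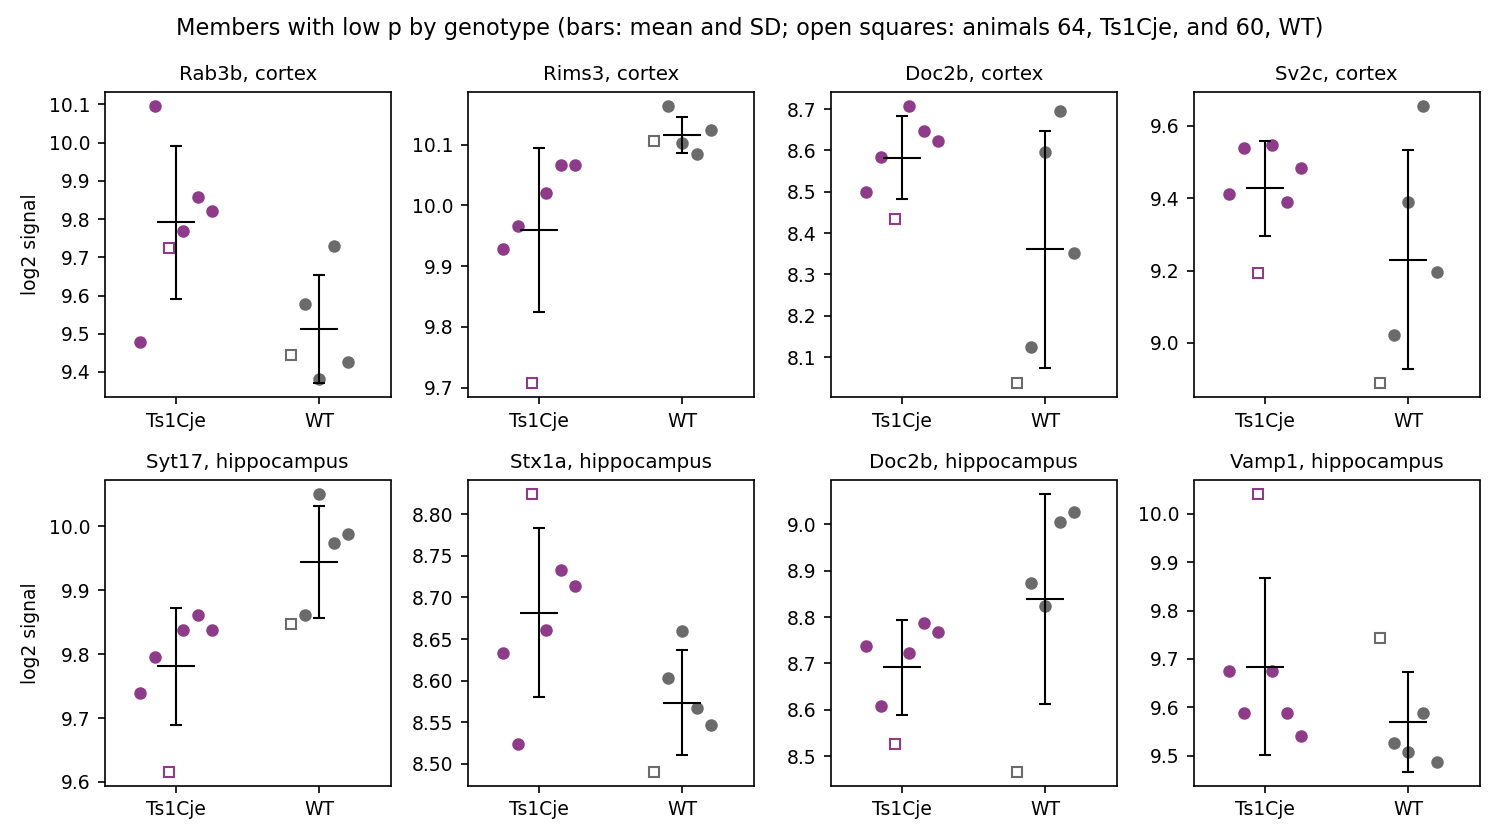
Log2 signal as deposited on each array for 8 gene and region pairs among those with the lowest p by genotype, the 6 Ts1Cje animals left of the 5 WT animals, with bars at the mean and SD and open squares for animals 64 and 60. The groups overlap in each panel except Rims3 in cortex, where the Ts1Cje values reach 10.07 and the WT values start at 10.08.

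With both regions of each animal averaged after centring, 0 of 39 members were called, beside 0.0445% of all features, and 0 had an unadjusted p under 0.05, beside 1.73%. The lowest p were those of Rab3b, with a log2 difference of 0.19 ± 0.0938 (p 0.0613, adjusted p 1), and Vamp1, with 0.13 ± 0.0762 (p 0.125, adjusted p 1). Slc17a6, Rims3 and Stx1a followed with 0.11, -0.07 and 0.06 (p 0.196, 0.198 and 0.231), and Slc17a6 was at 0.04 without WT animal 60. Of the 39 members 21 lay above 0 and all 39 intervals lay inside a 1.5-fold change in either direction, as did 97.8% of all features.

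The difference of the genotype effect between the regions was called in 0 of 39 members and 0 of all features (0%) with limma, with 1 member and 260 features (1.28%) at an unadjusted p under 0.05. This fit took both arrays of an animal as independent. Pairing them by a random animal effect put 2 members and 912 features under that p. The paired fit called 0 members, the smallest adjusted p among the members being 0.941. The member of the unpaired fit was Doc2b. Hippocampus exceeded cortex in deposited log2 signal by 0.01 at the lowest, 0.12 at the median and 0.24 at the highest of the 6 Ts1Cje animals, against 0.23, 0.43 and 0.75 of the 5 WT animals. The means were 0.11 ± 0.0836 in Ts1Cje and 0.48 ± 0.227 in WT (SD), and 5 of 6 Ts1Cje animals lay below all WT animals. The fitted difference was -0.37 ± 0.157, with a 95% interval of -0.70 to -0.04 (p 0.0285, adjusted p 1). Without animals 64 and 60 it was -0.38 (p 0.0072, adjusted p 0.917). Syn3 and Syt17 had the next lowest p, with differences of -0.16 ± 0.087 (p 0.0892) and -0.18 ± 0.115 (p 0.126). For 37 of 39 members the interval of this difference lay inside a 1.5-fold change in either direction, as it did for 73.9% of all features.

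**Figure D5:**
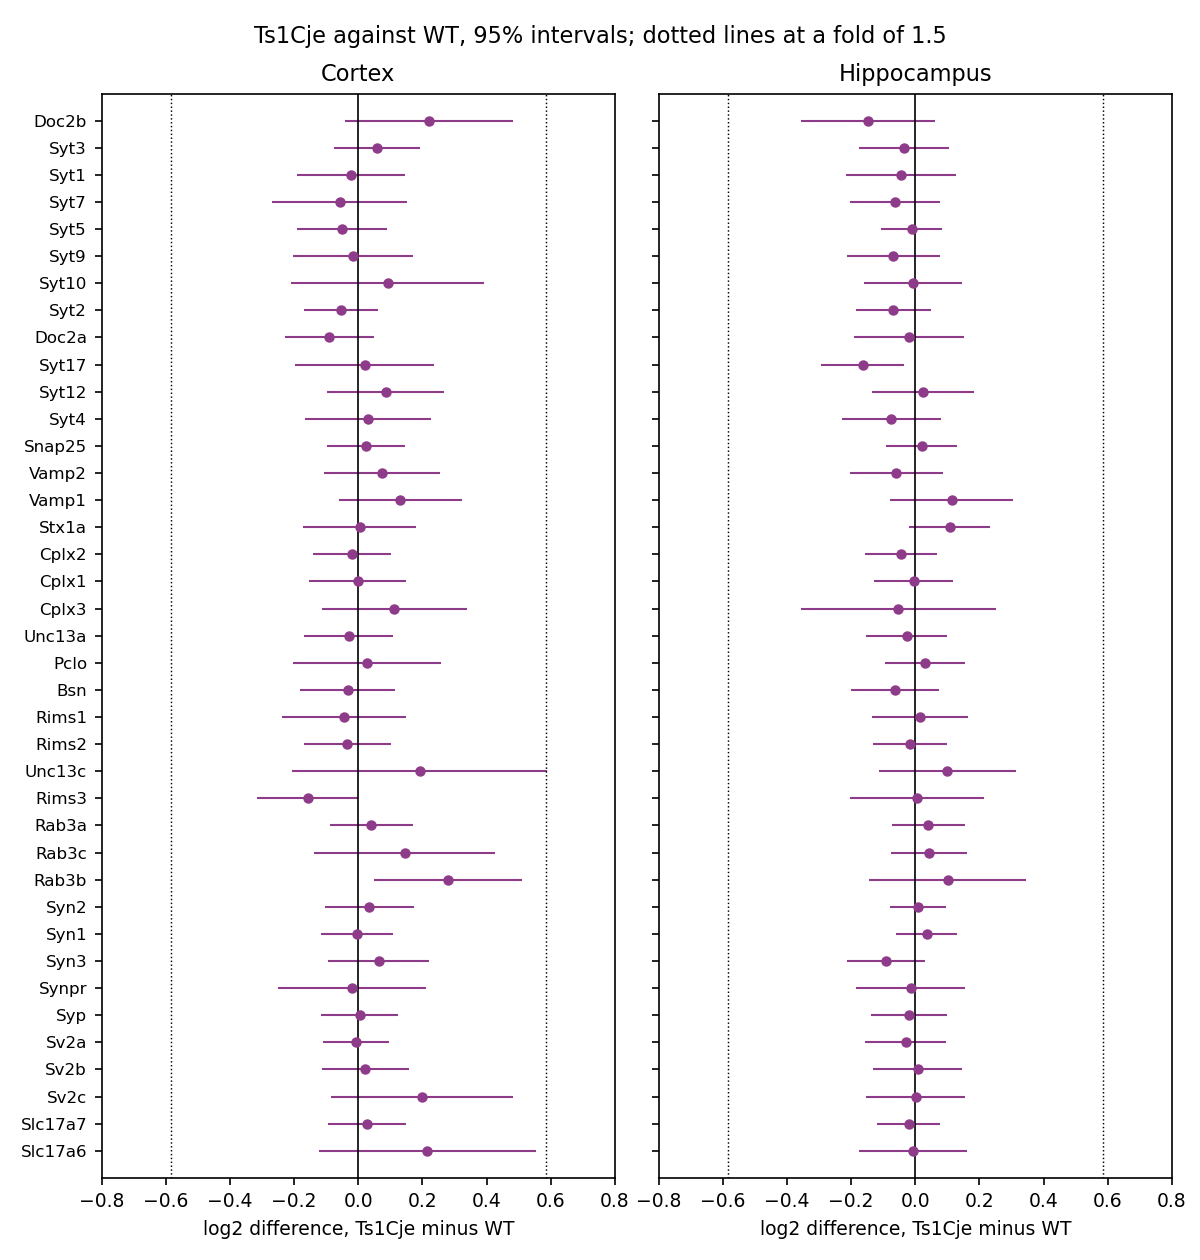
Ts1Cje minus WT log2 difference of each of the 39 members in cortex (left) and hippocampus (right), with 95% intervals and dotted lines at a fold of 1.5. No member was called in either region, and the intervals stay inside a 1.5-fold change except that of Unc13c in cortex.

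Leaving out animals 64 and 60 gave no call among the members. In cortex 0 members were called and 3 had an unadjusted p under 0.05, Rims3 at -0.11, Rab3b at 0.28 and Vamp1 at 0.15, the smallest adjusted p being 0.816. Of all 20239 features 0.158% were called there and 1208 had such an unadjusted p. In hippocampus 0 members were called, beside 0.183% of all features. There 2 members had an unadjusted p under 0.05, Doc2b at -0.21 (p 0.00404, adjusted p 0.437) and Syt17 at -0.15 (p 0.00722, adjusted p 0.473), beside 1694 of all features. Of the 63 further exocytosis genes 0 were called by genotype in cortex, in hippocampus, in the mean of both or in their difference. No marker of any cell type list was called by genotype in either region.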

How the data were processed

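Log2 signals were deposited by the authors as 1 table of 22 arrays, and per the submitters' processing notes they were made with RMA, which corrects background, normalizes arrays and summarizes probes. Whether both regions were normalized together, and with which version, is not given in the sources used here. Features were named from Entrez numbers through RefSeq (GRCm38.p6), and 986 without a symbol were left out. No filter was set on dim features.

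Differences were fitted with limma 3.58.1 in R 4.3.3 (lmFit, eBayes, two-sided) on all 20239 features, Benjamini-Hochberg adjusted over all of them and called at adjusted p under 0.05. Genotype was fitted within the 11 arrays of a region and on animal means after centring arrays on their medians. Regions, after that centring, and the difference of genotype effects were fitted on 22 arrays in 4 groups. The steps were tested on simulated data. The members and lists were chosen with earlier results of these data known.

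Values per array were given for members called or, where fewer than 5 were called by genotype (3 for the difference of effects), those with the lowest p, and between regions for up to 8 called members with the largest difference on each side. Other members were named by role. Extra pathway genes are those with a large difference; Rims4 was picked after its values were seen.

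The labels give the same animal number to a cortex and a hippocampus array, which pairs them. After group means were removed, these correlated across features at r 0.052 to 0.761. For Ts1Cje animals 61, 63, 94 and 97 (r 0.090, 0.052, 0.265 and 0.213) the best match was another animal's array. Comparisons within an animal therefore rest on the labels. On 2 arrays the title gives animal 60 and the description 61; the title was used. Alternatives were other scalings, no dim features, a trend and robust prior, array weights, 1 fit on all arrays, replicate blocks, and leaving out animals.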

Additional observations from a re-analysis of the deposited data

Results flagged for a closer look

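With 39 members in 4 groups of 5 or 6 animals, 156 tests were made for a single value lying far from the rest of its group, for which chance gives about 5%, and 28 values were marked. All are log2 signals as deposited. Of these 28, 12 were on the arrays of Ts1Cje animal 64 and 11 on those of WT animal 60, the animals whose arrays have a narrow spread of values.

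In Ts1Cje cortex animal 64 was lowest for Syt4 (10.67), Rab3c (11.03), Rims2 (10.01), Bsn (10.3), Pclo (11.11) and Doc2a (9.01). In WT cortex animal 60 was lowest for Syt4 (10.62), Syt12 (8.59), Syn2 (11.55), Sv2b (12.2), Snap25 (13.16), Rab3c (10.69) and Pclo (10.98). Syt4, Rab3c and Pclo were marked on both arrays.

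In Ts1Cje hippocampus animal 64 was apart for Syn1 (11.41), Vamp1 (10.04) and Cplx3 (6.6), all high, and for Sv2b (11.43), Rims1 (9.58) and Pclo (10.42), all low. In WT hippocampus animal 60 was high for Syt9 (7.67), Sv2a (11.54) and Vamp2 (12.28) and low for Syt12 (7.78).

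The remaining 5 values were on arrays of other animals. Syt2 in Ts1Cje cortex was low in animal 61 (8.25), Stx1a in Ts1Cje cortex was high in animal 63 (10.72), Cplx2 in Ts1Cje hippocampus was high in animal 63 (10.14), Syt1 in WT hippocampus was low in animal 65 (12.4) and Syn3 in WT hippocampus was high in animal 98 (8.69).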

How the results depend on the processing

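In the genotype comparisons 0 members were called under every alternative run, leaving out single animals included. The median member difference ranged from 0.0016 to 0.0307 in cortex and from -0.0187 to -0.0099 in hippocampus when single animals were left out. After quantile normalization the cortex median was -0.0021. In hippocampus the median was -0.00065 after quantile normalization and 0.0013 after centring.

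Between regions 28 to 33 members were called when single animals were left out, beside 36.5% to 48% of all features, with a median difference of -0.19 to -0.17. The calls lost were those of Slc17a6, Rab3b and Syt5. A random replicate block for the animal gave 35 called members and a fixed one 34. The block changed no call other than the 4 named above. WT animals alone called 19 members, 13 of them lower. Scaling to 1 interquartile range as well as centring called 21, 5 higher and 16 lower, beside 41.3% of all features. Without centring 1 was called higher and 37 lower, and the median member difference was -0.81. Members above 0 fell from 13 after centring to 1, since the median of all features shifted by -0.63. Among the members called after centring, the sign relative to 0 turned for Synpr (-0.080), Syt17 (-0.15), Syn2 (-0.24), Syt3 (-0.27), Slc17a7 (-0.30), Snap25 (-0.45), Cplx2 (-0.50) and Syn1 (-0.52). After quantile normalization Snap25 was -0.12; the cause was not tested. The comparison with features of the same brightness and the fits in each genotype alone were added after seeing the data. Signal over background could not be read from summarized values, which limits Cplx3 in particular, and the number of animals limits all genotype intervals.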
